A study of Homo sapiens with 4 samples.

Results

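The data described here are the transcript levels of 5 genes for antiviral membrane proteins, *IFITM1*, *IFITM2*, *IFITM3*, *BST2* and *LY6E*, among 46660 gene identifiers measured by RNA-seq in glioblastoma cells after knockdown of *FLI1*, which encodes an ETS family transcription factor. The 5 genes were chosen by name and function with earlier results of these data known, and their counts were the sums of all linear RNAs listed under each Entrez gene. The cells were U87MG and U251MG, which are established human glioblastoma cell lines grown in DMEM with serum. In each line, cells infected with lentivirus carrying the pGreen control vector were titled shControl and are called control here. They were compared with cells that had received shRNA lentivirus directed at *FLI1* (shFLI1). All cells had therefore been through lentiviral infection and puromycin selection, and each group was a mixed stable population rather than a clone. The study designed 2 shRNAs against *FLI1*, and which of them a library came from is not given in the sources used here. There was 1 library per group and line, so differences within a line had no replicate check.

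IFITM proteins sit in the plasma membrane and in endosomes, where they hinder the fusion of enveloped viruses with the cell, and IFITM2 and IFITM3 act mainly in endosomes. Tetherin, the product of *BST2*, is anchored in the membrane at both ends and holds budding virus particles on the surface of the infected cell. LY6E is a small GPI-anchored protein of the LY6/uPAR family that restricts the entry of coronaviruses and can favour the entry of some other viruses. All are classical interferon-stimulated genes, whose transcription is driven when the transcription factor complex ISGF3 binds an interferon-stimulated response element (ISRE) near their start.

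Library totals were between 12229780 and 28891055 counts, and the shFLI1 library was deeper than its control by 1.74 times in U87MG and 1.60 times in U251MG. *FLI1*, the targeted gene, was at 9.34 and 2.34 CPM (counts scaled to a common library depth, with TMM factors) in control and shFLI1 cells of U87MG, and at 12.1 and 3.71 CPM in U251MG. These are log2 fold changes of -1.95 and -1.68. Of the glioma cell markers, *VIM*, *NES*, *SOX2* and *CD44* had at least 1337 counts in every library and *GFAP* at least 364, while *S100B* had between 1 and 11. *GFAP*, an astrocyte intermediate filament gene, was called higher in both lines, with log2 fold changes of 1.32 and 2.19, and its part in the members' values was not tested. For the other cell types, 6 of 8 markers were in the table, with between 22 and 59 counts in sum per library. *PTPRC*, which marks leukocytes, had at most 5 counts and *CDH1*, which marks epithelial cells, at most 1.

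The IFITM genes lie together on chromosome 11. In GENCODE v44 (GRCh38) the canonical transcript of *IFITM2* spans 307816 to 309395 on the plus strand and that of *IFITM1* 314040 to 315272 on the plus strand, while *IFITM3* spans 319676 to 320860 on the minus strand. Each has 2 exons, and the spliced transcripts are 1006, 668 and 611 bases long. *BST2* has 5 exons on the minus strand of chromosome 19, from 17402939 to 17405630, and *LY6E* has 4 exons. The spliced *IFITM2* and *IFITM3* transcripts were 94.0% identical where they aligned, *IFITM1* and *IFITM3* 81.2%, and *IFITM1* and *IFITM2* 78.6%. Of all 50-base words in the *IFITM1* transcript, 15.8% also occurred in that of *IFITM3*. The share was 5.33% for words of *IFITM2* found in *IFITM3*. Of 100-base words, 7.38% of those of *IFITM1* occurred in *IFITM3* and 0 of those of *IFITM2* in either relative. Reads from shared stretches could have been assigned to either gene, so values of single IFITM genes carry that uncertainty, which is smaller for longer reads. The study's methods give paired reads longer than 100 bases, so the 100-base shares are the closer guide. *BST2* and *LY6E* shared no such word with the other members.

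Promoters of the members are shown for the sequence next to their start sites. RefSeq promoter sequences (GRCh38.p14) matched 3 of the 5 members, *IFITM1*, *IFITM3* and *BST2*, and entries for *IFITM2* and *LY6E* were missing. The 250 bases before the start are printed 5′ to 3′ on the gene's strand, with matches to the ISRE letters in capitals (GAAA, any 2 bases, then GAAA again). The regions are chr11:313790-314039 (plus strand) for *IFITM1*, chr11:320861-321110 (minus strand) for *IFITM3* and chr19:17405631-17405880 (minus strand) for *BST2*.
IFITM1: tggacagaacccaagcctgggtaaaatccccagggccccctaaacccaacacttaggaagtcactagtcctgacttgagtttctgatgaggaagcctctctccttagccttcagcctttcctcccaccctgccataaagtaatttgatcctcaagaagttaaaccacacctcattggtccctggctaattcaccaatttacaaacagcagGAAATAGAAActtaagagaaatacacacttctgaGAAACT
IFITM3: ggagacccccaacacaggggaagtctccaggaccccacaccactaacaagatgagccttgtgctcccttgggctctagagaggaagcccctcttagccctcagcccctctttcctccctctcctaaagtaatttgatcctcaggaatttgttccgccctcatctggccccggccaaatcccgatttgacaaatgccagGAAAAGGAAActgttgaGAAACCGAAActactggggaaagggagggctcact
BST2: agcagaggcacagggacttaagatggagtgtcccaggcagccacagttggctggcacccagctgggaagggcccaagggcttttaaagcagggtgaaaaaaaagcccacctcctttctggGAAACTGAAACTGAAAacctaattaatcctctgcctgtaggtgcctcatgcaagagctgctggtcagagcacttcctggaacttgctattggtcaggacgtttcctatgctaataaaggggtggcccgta
Both strands were searched from 250 bases before to 50 bases after the start. Each of the 3 promoters held 2 matches, and 3.57% of 35116 promoters of the same length held at least 1. The matches began 40 and 6 bases before the start in *IFITM1*, the second running across the start, so that its last letters lie beyond the printed stretch. They began 52 and 35 bases before the start in *IFITM3*. In *BST2* they began 130 and 124 bases before the start and overlapped each other. The letters CCGGAAGT, an ETS family motif, were found in 0 of the 3 windows and in 4.14% of all promoters. Only these exact letters were searched, so variants of the motif were not counted and ETS sites are not shown to be absent. These are matches of letters only, and no binding was measured in these libraries.

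All 5 members had lower levels in shFLI1 cells than in control cells of the same line. A gene was called within a line when it differed by more than 2-fold and its reads gave P below 0.05 in an exact binomial test (two-sided). That test compares a pair of libraries, not the conditions they stand for. There were 4 of 5 members called lower in U87MG, against 4.33% of all genes tested. In U251MG 5 of 5 were called lower, against 4.06%. The 4 members called in both lines, *IFITM1*, *IFITM3*, *BST2* and *LY6E*, stand beside 1.45% of genes. Since the members were not chosen independently of these data, the shares of all genes are given as a background and not as a test. The median log2 fold change of the members was -1.88 in U87MG and -2.73 in U251MG, while that of all genes tested was 0.06 and 0.04. When all 4 libraries were fitted together with cell line as a blocking factor (edgeR's quasi-likelihood test), 5 of 5 members fell at a Benjamini-Hochberg adjusted p below 0.05, against 2.14% of genes. For each member both control libraries were above both shFLI1 libraries in CPM, though not in FPKM for *IFITM2*. In CPM this held for 14.2% of genes. The quasi-likelihood test treats the lines as the only replicates of the knockdown. It has 1 residual degree of freedom per gene beside 7.73 prior degrees of freedom. Its p-values thus rest mostly on the spread estimated over other genes in these samples. The expression of all 5 genes was measured in bulk RNA, in which fewer cells with a transcript and less of it per cell cannot be told apart.

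**Figure D1:**
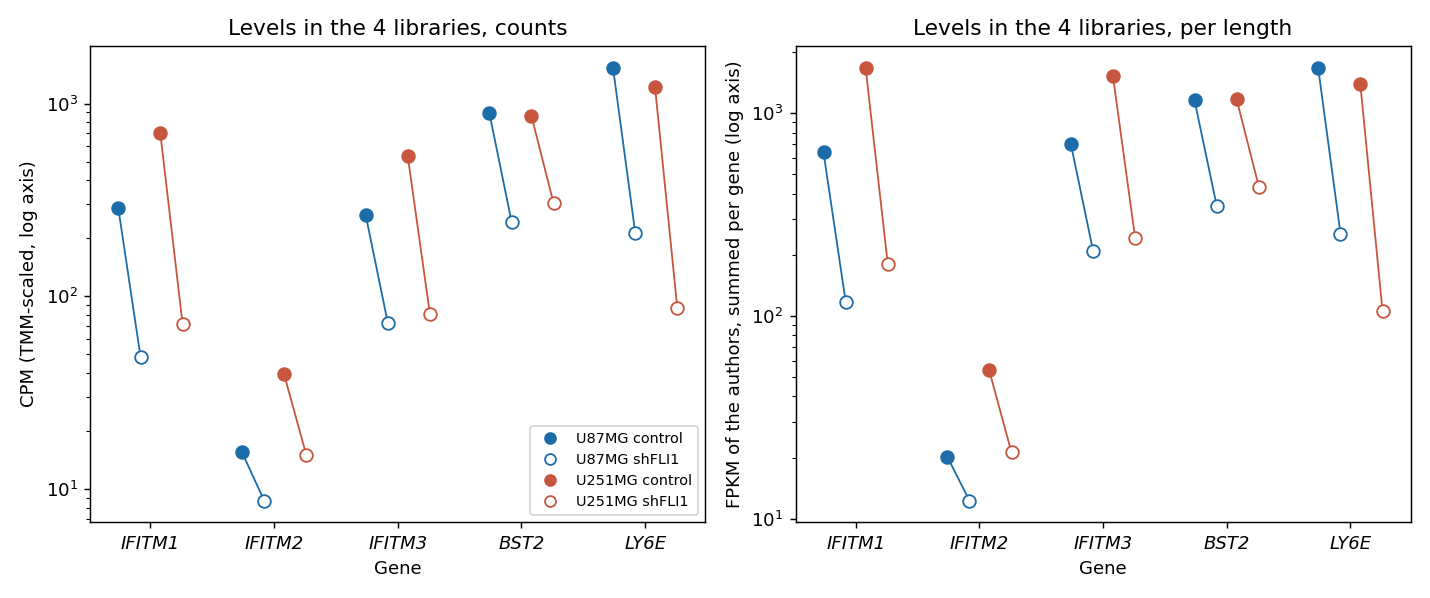
Level of each member in the 4 libraries, as TMM-scaled CPM (left) and as the authors' FPKM, which divides by transcript length (right), both on log axes. Each point is 1 library, filled for control and open for shFLI1, and lines join the libraries of a cell line. Every line runs downwards, *IFITM2* from 15.5 to 8.72 CPM in U87MG being the flattest on the left, and *LY6E* in U251MG, from 1215 to 87.2 CPM, the steepest.

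IFITM1 is found mainly at the plasma membrane. *IFITM1* (Entrez 8519) had 3296 counts in U87MG control, 1082 in U87MG shFLI1, 12520 in U251MG control and 2153 in U251MG shFLI1 cells. After scaling these were 288, 48.6, 702 and 71.9 CPM. Both control libraries were above both shFLI1 libraries, and U251MG control cells had the highest level. The log2 fold change was -2.56 in U87MG (95% counting interval -2.67 to -2.47) and -3.29 in U251MG (-3.35 to -3.22), or 5.92-fold and 9.77-fold lower. In shFLI1 cells 16.9% and 10.2% of the control level were left. The gene ranked 114 from the lowest fold change among 17355 genes in U87MG and 82 among 18222 in U251MG. Over both lines the log2 fold change was -2.95 (adjusted p = 0.000301, edgeR's quasi-likelihood test).

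IFITM3, the member best known for blocking influenza virus in endosomes, is encoded on the opposite strand next to *IFITM1*. *IFITM3* (Entrez 10410) had 3036 and 1613 counts in control and shFLI1 cells of U87MG and 9566 and 2422 in those of U251MG. The levels were 265 and 72.5 CPM in U87MG, and 537 and 80.9 CPM in U251MG. As for *IFITM1*, the control libraries differed more from each other than the shFLI1 libraries did, and the groups did not overlap. The log2 fold changes were -1.87 (-1.96 to -1.78) and -2.73 (-2.79 to -2.67), which are 3.66-fold and 6.63-fold lower. The shared log2 fold change was -2.32 (adjusted p = 0.00106, edgeR's quasi-likelihood test).

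IFITM2, the closest relative of IFITM3, had the lowest FPKM of the members in every library and the smallest fold changes. *IFITM2* (Entrez 10581) had 178 and 194 counts in U87MG control and shFLI1 cells, and 706 and 451 in U251MG. Because the shFLI1 libraries were deeper, these became 15.5 and 8.72 CPM in U87MG, and 39.6 and 15.1 CPM in U251MG. U87MG control cells were thus at nearly the level of U251MG shFLI1 cells, and the groups did not overlap in CPM. In FPKM they did overlap, with U87MG control cells at 20.2 and U251MG shFLI1 cells at 21.2. The log2 fold change was -0.83 (-1.13 to -0.53) in U87MG, 1.78-fold lower, which passed the read test but not the 2-fold threshold. It was -1.39 (-1.57 to -1.22) in U251MG, 2.63-fold lower. Over both lines it was -1.15 (adjusted p = 0.0168, edgeR's quasi-likelihood test). With total counts in place of TMM it was -1.02 with an adjusted p of 0.0527, so this call rested on the scaling.

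The 3 IFITM genes did not fall in proportion. *IFITM1* gave 50.6% of their summed counts in U87MG control cells (exact binomial 95% interval 49.4% to 51.9%) and 37.5% in U87MG shFLI1 cells (35.7% to 39.3%). In U251MG its share was 54.9% in control and 42.8% in shFLI1 cells. *IFITM3* made up 46.6% and 55.8% in U87MG and 42.0% and 48.2% in U251MG. The share of *IFITM2* was 2.73% and 6.72% in U87MG and 3.10% and 8.97% in U251MG. In both lines *IFITM1* thus held a smaller part of the IFITM counts in shFLI1 cells, and *IFITM2* and *IFITM3* a larger one. Summed as 1 gene, which removes the question of which IFITM gene a read came from, they gave a log2 fold change of -2.13 for U87MG and of -2.93 for U251MG.

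Tetherin differs from the IFITM proteins in acting on the release of virus rather than on its entry. *BST2* (Entrez 684) had 10258 counts in U87MG control, 5422 in U87MG shFLI1, 15448 in U251MG control and 9089 in U251MG shFLI1 cells. The levels were 896, 244, 867 and 304 CPM, so the control libraries of the lines were alike and both shFLI1 libraries lay well below them. The log2 fold change was -1.88 (-1.93 to -1.83) in U87MG and -1.51 (-1.55 to -1.48) in U251MG, leaving 27.2% and 35.0% of the control level. Over both lines it was -1.71 (adjusted p = 0.00249, edgeR's quasi-likelihood test).

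*LY6E* was the member with the largest fold change in both lines. The gene (Entrez 4061) had 17589 and 4743 counts in U87MG control and shFLI1 cells and 21661 and 2610 in U251MG. The levels were 1536 and 213 CPM in U87MG, and 1215 and 87.2 CPM in U251MG. In contrast to *IFITM1* and *IFITM3*, its lowest level was in U251MG shFLI1 cells and its highest in U87MG control cells. The log2 fold change was -2.85 (-2.90 to -2.80) in U87MG and -3.80 (-3.86 to -3.74) in U251MG, or 7.20-fold and 13.9-fold lower. It ranked 93 from the lowest of 17355 genes and 43 from the lowest of 18222. The shared log2 fold change was -3.34 (adjusted p = 0.000444, edgeR's quasi-likelihood test). Each of its 2 RefSeq mRNAs was listed a second time with identical values. Counted once, *LY6E* had 8801, 2373, 10839 and 1307 counts in the same order, so its level may be overstated while its fold changes of -2.85 and -3.80 were the same. Its counting intervals were then wider, -2.915 to -2.783 in U87MG and -3.884 to -3.717 in U251MG. The intervals for *LY6E* between the lines use the counts with the repeated rows and may likewise be too narrow.

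**Figure D2:**
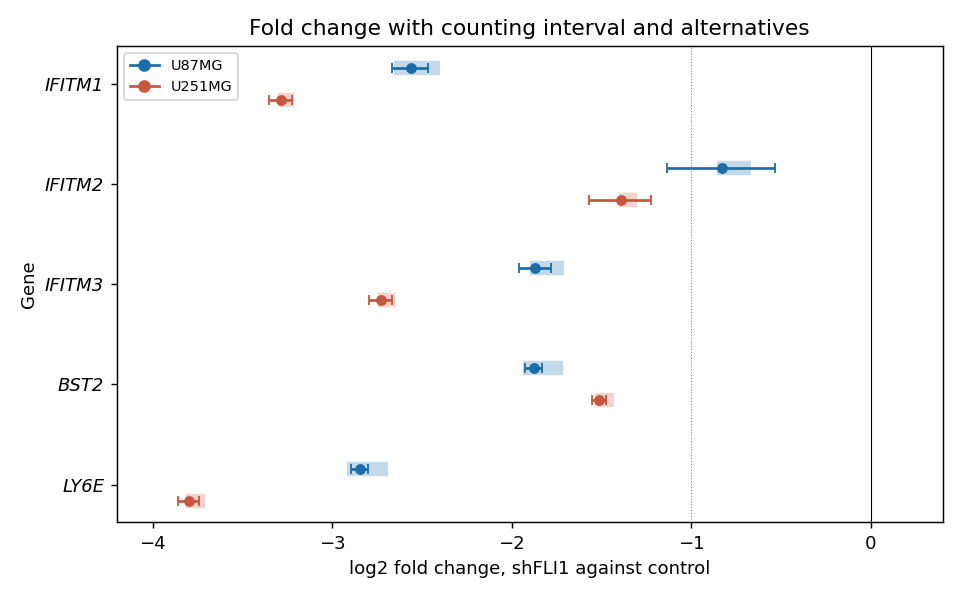
Log2 fold change of each member, shFLI1 against control, in U87MG and U251MG. Points are the values given in the text, bars are 95% counting intervals, and shaded bands give the range over the other processing settings, leaving out the setting that sums the IFITM genes. The dotted line marks 2-fold, and *IFITM2* in U87MG at -0.83 is the value that does not pass it.

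Between the lines, the levels of the 3 IFITM genes lay closer together in shFLI1 than in control cells, and those of *LY6E* and *BST2* farther apart. U251MG control cells had more *IFITM1* than U87MG control cells by a log2 difference of 1.29 (1.23 to 1.34), and in shFLI1 cells the difference was 0.56 (0.46 to 0.67). For *IFITM3* it was 1.02 (0.96 to 1.08) in control and 0.16 (0.066 to 0.25) in shFLI1 cells, and for *IFITM2* 1.34 (1.11 to 1.59) and 0.78 (0.54 to 1.04). *LY6E* was lower in U251MG by -0.34 (-0.37 to -0.31) in control and -1.29 (-1.36 to -1.22) in shFLI1 cells. *BST2* differed between control cells by -0.05 (-0.084 to -0.012), a direction that turned to 0.024 with total counts, and between shFLI1 cells by 0.32 (0.27 to 0.37). The IFITM genes were thus higher in U251MG than in U87MG in both groups. Among all genes, 9.85% were called higher in U251MG control than in U87MG control cells, and the 3 IFITM genes were among the genes past 2-fold, though *IFITM3* was at 0.95 with DESeq2 size factors.

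The log2 fold change was lower in U251MG than in U87MG for 4 of 5 members, which compares with 52.4% of all genes. The difference of log2 fold changes, U251MG minus U87MG, was -0.95 (95% counting interval -1.03 to -0.88) for *LY6E* and -0.86 (-0.97 to -0.75) for *IFITM3*. It was -0.72 (-0.84 to -0.60) for *IFITM1* and -0.56 (-0.90 to -0.22) for *IFITM2*. *BST2* fell less in U251MG than in U87MG, with a difference of 0.36 (0.30 to 0.42). With 1 library per group these differences could not be tested against a spread between replicates.

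**Figure D3:**
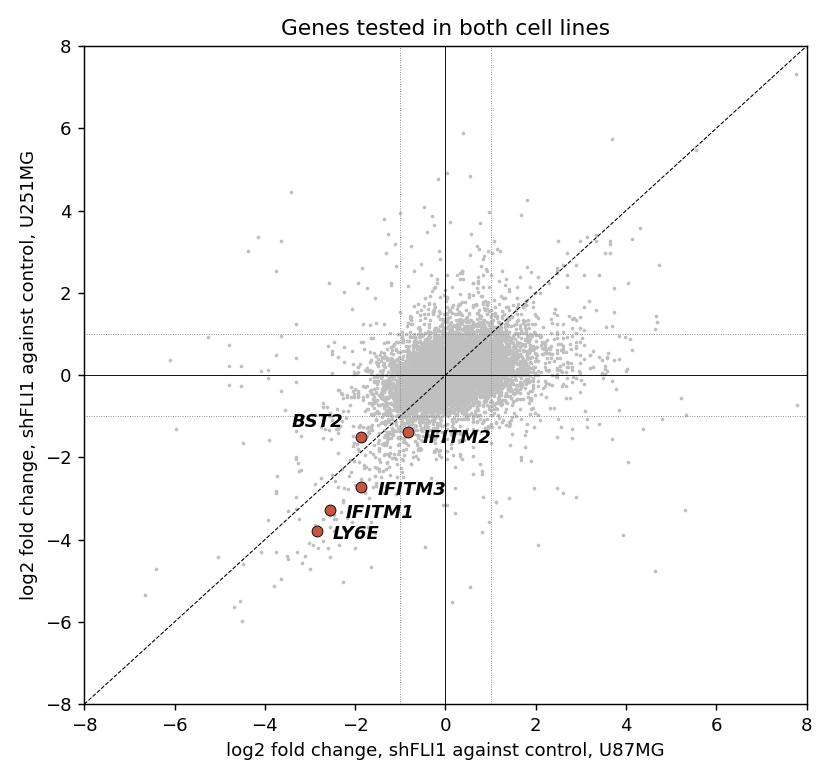
Log2 fold change, shFLI1 against control, in U87MG (x axis) and U251MG (y axis) for the 16384 genes tested in both lines. Red points are the 5 members, the dashed diagonal marks equal fold changes and dotted lines mark 2-fold. All members lie at negative values on both axes, *BST2* above the diagonal and the others below it.

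On the FPKM scale, which divides by transcript length and so allows genes to be compared, the order of the members differed between the libraries. *LY6E* led in U87MG control cells with 1658 FPKM, followed by *BST2* with 1151, *IFITM3* with 702, *IFITM1* with 639 and *IFITM2* with 20.2. In U251MG control cells *IFITM1* led with 1672 FPKM, followed by *IFITM3* with 1520, *LY6E* with 1389, *BST2* with 1168 and *IFITM2* with 53.7. *BST2* led in both shFLI1 libraries, with 346 FPKM in U87MG and 432 in U251MG. *LY6E* was at 254 FPKM in U87MG shFLI1 cells, below *BST2* only. In U251MG shFLI1 cells *LY6E* was at 105 FPKM, below *BST2*, *IFITM3* and *IFITM1*. *IFITM2* was last in all 4 libraries. Counted once, *LY6E* was at 834 FPKM in U87MG control and 699 in U251MG control cells and was no longer first in the former. In U87MG shFLI1 cells it was then at 128 FPKM, below *IFITM3* at 209. The order has no replicate error, and neighbours such as *IFITM3* and *IFITM1* in U87MG control cells cannot be ranked from 1 library.

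Taken as a share of all counts, the 5 members made up 0.281% in U87MG control and 0.0614% in U87MG shFLI1 cells. In U251MG the shares were 0.331% and 0.0579%. These shares include the *LY6E* mRNAs that were listed a second time, so they may be overstated. Nearly all counts came from the RefSeq mRNAs of the genes, between 99.7% and 99.9% for *IFITM3* and *BST2* and between 93.3% and 96.3% for *IFITM1*. For *IFITM2* the RefSeq mRNA had between 83.8% and 96.3% of the counts, the rest lying on 1 other RNA of the gene. That RNA had 28.9 and 17.4 estimated counts in U87MG control and shFLI1 cells and 67.5 and 16.9 in U251MG. On the RefSeq mRNA alone, the log2 fold changes of *IFITM2* were -0.71 and -1.30.

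The genes with a pattern most like each member over the 4 libraries were found by the root mean square distance of centred log2 CPM, among 13357 genes with at least 100 counts in sum. For *LY6E* these were *ISG15*, a ubiquitin-like modifier, at 0.14, *OAS1*, an RNA-sensing oligoadenylate synthetase, at 0.30, and *HERC6* at 0.30. Among the genes near *IFITM3* were *HERC5*, the ligase for ISG15, at 0.12 and *SAMD9L* at 0.15. *IFITM1* was nearest to *LGALS9*, which encodes galectin-9, at 0.096, then *LINC03105* at 0.13 and *TXNIP* at 0.14. The nearest genes to *IFITM2* were *IFI16*, a DNA sensor, at 0.086, *CLDN1* at 0.097 and *CACNG4* at 0.12. *BST2* was nearest to *MYD88*, the adaptor of Toll-like receptors, at 0.12, *LOC105371082* at 0.14 and *TMEM198* at 0.15. Among the members themselves, *IFITM1* and *IFITM3* were the closest pair at 0.36 and *IFITM2* and *LY6E* the farthest at 1.46. With 4 libraries these distances describe the pattern only.

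Of 12 genes of type I interferon signalling, the pathway known to induce the members, 11 were tested. In U87MG 3 were called lower and 0 higher, and in U251MG 6 were called lower and 0 higher, where 4.33% and 4.06% of all genes were called lower. In edgeR's quasi-likelihood test over both lines 5 fell, against 2.14% of genes. The median log2 fold change of the list was -0.71 in U87MG and -1.07 in U251MG, against 0.06 and 0.04 over all genes tested. *STAT2*, a signal transducer of the interferon receptor, had log2 fold changes of -1.36 and -1.51, and *USP18*, which dampens receptor signalling, of -2.26 and -3.04. *IRF9*, the DNA-binding subunit of ISGF3, was at -0.96 in U87MG, short of 2-fold, and at -1.31 in U251MG. It fell in the test over both lines. *IRF1*, an interferon-induced transcription factor, was at -0.88 in U87MG, short of 2-fold, and at -1.80 in U251MG. It fell in that test as well. The receptor genes did not pass the thresholds, with log2 fold changes of 0.58 and 0.43 for *IFNAR1* and 0.20 and 0.15 for *IFNAR2*. The receptor kinase *JAK1* was at -0.24 and 0.28 and *TYK2* at -0.08 and -0.10. Of 21 interferon genes 5 were in the table, with between 6 and 17 counts in sum per library, too few to be tested within a line.

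Genes whose products modify or bind the members' proteins were not called, where 11.8% of all genes in U87MG and 8.5% in U251MG were called in either direction. At those shares, lists this short would hold few called genes, so nothing particular to them is read from counts of 0. Of 8 genes for modifiers and partners of IFITM proteins, among them *ZDHHC20*, a palmitoyltransferase, and *ZMPSTE24*, a protease that acts with them, 0 were called in either line or in the test over both lines. Their log2 fold changes lay between -0.21 and 0.22 in U87MG and between -0.27 and 0.45 in U251MG. Tetherin and LY6E carry a GPI anchor, and of 29 genes of its synthesis 0 were called in either line or over both lines. Their fold changes ranged from -0.86 to 0.66 in U87MG and from -0.42 to 0.89 in U251MG on the log2 scale. Of 3 partners of tetherin 2 were tested and 0 called in any of these comparisons. These were *RNF115*, a ubiquitin ligase that binds tetherin, at 0.01 and 0.17, and *MARCHF8*, also a ubiquitin ligase, at 0.68 and 0.44.

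Of 2 other IFITM genes 1 was in the table. *IFITM10*, a distant relative of the antiviral IFITM genes, was at 12.4 and 2.61 CPM in U87MG and at 16.9 and 8.15 CPM in U251MG. Its log2 fold changes were -2.21 and -1.04, and over both lines -1.60 (adjusted p = 0.0264, edgeR's quasi-likelihood test). Of 25 other genes of the LY6/uPAR family 16 were in the table and 10 were tested in U87MG, of which 1 was called lower, *PSCA* at -1.41, and 1 higher, *LY6G5B* at 1.69. In U251MG 11 were tested and 2 called lower, *LY6K* at -1.35 and *LYPD3* at -1.33. Over all genes 11.8% and 8.5% were called in either direction, so nothing particular to the family is read from these counts, and in the test over both lines 0 of the family passed. *CD59*, a GPI-anchored inhibitor of complement, was at 0.39 and 0.56. Of 8 other restriction factors 7 were tested. In U87MG 2 were called lower and in U251MG 1, where 4.33% and 4.06% of all genes were called lower. *GBP5*, an interferon-induced guanylate-binding protein, was at -1.08 and -2.48 and *GBP2* at -1.62 and -0.72. In the test over both lines 1 of them fell, *GBP2* (adjusted p = 0.0248, edgeR's quasi-likelihood test), against 2.14% of genes. The constitutive factors *SERINC3* and *SERINC5*, which lower the infectivity of retroviruses, were at 0.08 and 0.39 and at 0.08 and 0.40.

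**Figure D4:**
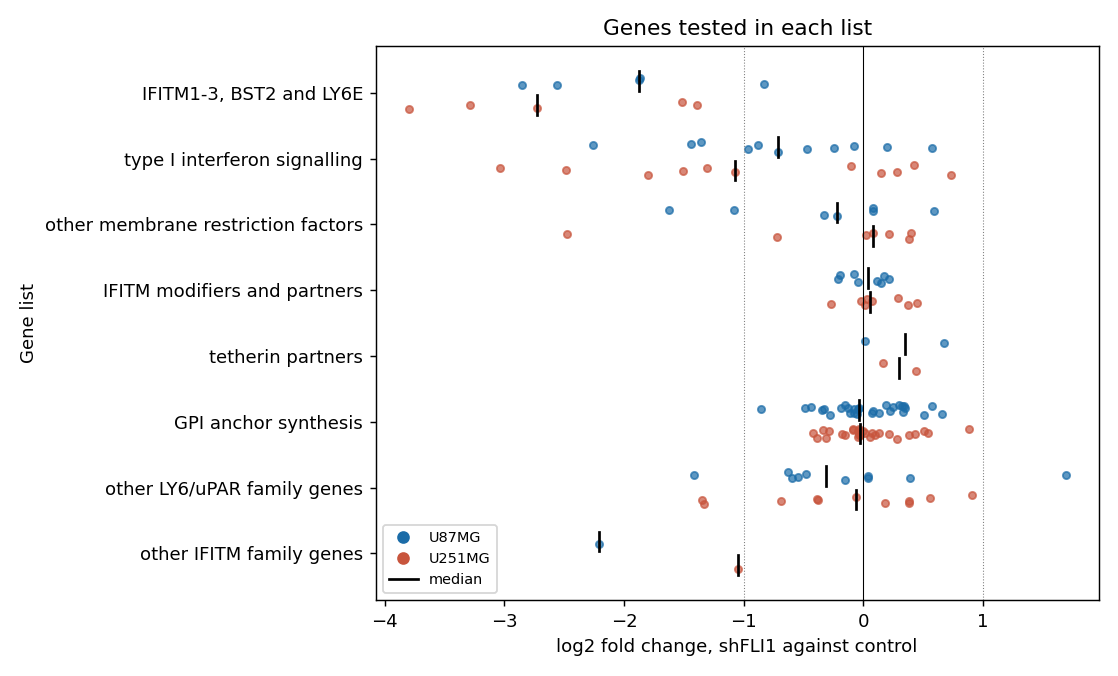
Log2 fold change, shFLI1 against control, of the tested genes of each list in U87MG and U251MG. Each dot is 1 gene and each black tick the median of a list. The 5 members lie between -2.85 and -0.83 in U87MG and between -3.80 and -1.39 in U251MG, while the genes for GPI anchor synthesis lie between -0.86 and 0.89 over both lines.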

How the data were processed

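RNA-seq of 4 libraries was analysed, 1 control and 1 shFLI1 library each from U87MG and U251MG. The study's methods and the labels name different mRNA library kits. Per the authors, mRNA was captured with poly-T beads, reads were aligned to GRCh38 (GRCh38.p13 in the submitters' processing notes) with HISAT2, and FPKM was computed with StringTie. The authors deposited estimated counts, not normalized, and FPKM values for 185042 linear RNAs, and whole counts for 31346 circular RNAs, not used here. The tool behind the counts and their use of strand are not given in the sources used here. Another 10 value columns (TPM and averages) were not used.

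Counts were summed per gene identifier, rounded, and scaled by TMM, with a prior count of 2 for fold changes. Within a line, genes reaching 10 counts in either library were tested by edgeR's binomial test on reads, which for genes with many reads takes a chi-square form. Clopper-Pearson intervals (95%) cover counting error only, since PCR reads are not independent molecules. Differences of fold changes had Wald intervals on counts. The shared effect came from edgeR's quasi-likelihood test with cell line as blocking factor, after filterByExpr, with Benjamini-Hochberg adjustment over 16649 genes. The cell lines pair the libraries by construction. The study names DESeq2, which was an alternative here, beside other scalings, filters, prior counts, FPKM, thinning and row choices. Scripts were tested on simulated data.

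The members and lists were chosen with earlier results of these data known. Genes named were the members, *FLI1*, the 3 genes nearest each member in pattern, list genes past 2-fold in both lines with up to 3 others per list, and neighbouring genes past 2-fold in both lines; further list genes were named after their values were seen, and some genes within the rule are not reported here. Promoter sequences came from RefSeq (GRCh38.p14) and gene positions from GENCODE. Software was R 4.3.3, edgeR 4.0.16, DESeq2 1.42.0, Python 3.11.15 and Biopython 1.88.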

Additional observations from a re-analysis of the deposited data

How the results depend on the processing

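With 1 library per group no library could be left out of a comparison within a line. Of the members' log2 fold changes within a line, 109 of 110 values under other settings kept direction and call, though 35 equalled the reported value, 20 of them because a count filter cannot move a fold change; the other was *IFITM2* in U87MG, which took the value of the summed IFITM genes, -2.13. With the IFITM genes summed there were 3 genes in place of 5, and 3 were called in U87MG, in U251MG and over both lines.

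For the shared effect, total counts in place of TMM left 4 of 5 members, *IFITM2* being at -1.02 (adjusted p = 0.0527, edgeR's quasi-likelihood test). Over all genes this setting gave 198 lower and 166 higher in place of 356 and 153, and moved the median log2 fold change of all genes to 0.22 in U87MG and 0.11 in U251MG. A filter of 1 count gave 736 lower and 567 higher. Without the cell line block 0 members passed edgeR's test, with log2 fold changes of -3.04 for *IFITM1*, -1.22 for *IFITM2*, -2.39 for *IFITM3*, -1.71 for *BST2* and -3.20 for *LY6E*; 0 genes passed in all, 725 having an unadjusted p below 0.05, 4 of the members among them. DESeq2 called 5 of 5 members with the block. Adjusted p ranged up to 0.00133 for *IFITM1*, 0.00431 for *IFITM3* and *BST2* and 0.00162 for *LY6E* over the alternatives with the block.

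The U251MG control against U87MG control difference moved by more than its counting interval with DESeq2 size factors to 1.22 (*IFITM1*), 0.95 (*IFITM3*), -0.11 (*BST2*) and -0.40 (*LY6E*), with total counts to 1.36, 1.09, 0.024 and -0.27, and with FPKM to 1.39, 1.11, 0.021 and -0.26. The difference of fold changes moved with total counts to 0.28 (*BST2*) and -1.04 (*LY6E*), with FPKM to 0.30 (*BST2*), and with thinned shFLI1 libraries to -0.57 (*IFITM1*) and -0.87 (*LY6E*). The cause was not tested.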

Other observations

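Genes beside the members on the chromosome were examined as counts. The 3 nearest protein-coding genes on each side of each member made 18 distinct genes, of which 12 were in the table and 7 were tested in each line. In U87MG 1 was called, *PGGHG* at a log2 fold change of -1.26, and in U251MG 1, *CCDC194* at -1.13. Over all genes 11.8% and 8.5% were called in either direction, so nothing particular to the neighbours is read from 1 of 7 genes in each line.

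Of 4 long non-coding RNAs within 10000 bases of a member 3 were in the table, and this distance was set after values were seen. *LY6E-DT*, which starts beside *LY6E* and lies outside it, had 24 and 9 counts in control and shFLI1 cells of U87MG and 44 and 11 in those of U251MG. It was called lower in both lines, with log2 fold changes of -2.13 (-3.66 to -1.22) and -2.46 (-3.85 to -1.77). Over both lines it was at -2.57 (adjusted p = 0.0335, edgeR's quasi-likelihood test). Of all genes, 1.45% were called lower in both lines and 2.14% fell in the test over both lines. *BISPR*, which is transcribed away from *BST2* from a start beside it, had 5 and 7 counts in control and shFLI1 cells of U87MG and 49 and 2 in those of U251MG. *BISPR* had too few counts to be tested in U87MG. In U251MG it was called lower, where 4.06% of all genes were. Its log2 fold change there was -4.11, with a counting interval from -8.45 to -3.43 on few reads. *IFITM3-AS1*, which overlaps *IFITM3*, had 3 and 7 counts in U87MG, too few to be tested, and 0 and 24 in U251MG. In U251MG it was called higher, at a log2 fold change of 3.20, while *IFITM3* was lower. There 8.5% of all genes were called in either direction. The 3 RNAs thus did not share a direction. Without a stated use of strand, reads in the overlap cannot be told apart from those of *IFITM3*.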
